A study of Pogona vitticeps with 24 samples.

Results

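The genes described here encode subunits and assembly factors of the respiratory chain and of ATP synthase in the bearded dragon *Pogona vitticeps*. They were chosen by symbol, as every gene of the deposited expression table whose name begins with NDUF, SDHA, SDHB, SDHC, SDHD, UQCR, ATP5, or COX followed by a digit. The rule found 63 of the 11126 genes of the table, of which 42 belong to complex I, 7 to complex II and 14 to ATP synthase. Of the complex I genes 34 encode subunits and 8 encode assembly factors, one of them named *ATP5SL* in the table although its human counterpart acts in complex I assembly. Complex II is represented by its 4 subunits and 3 assembly factors, and ATP synthase by 14 subunits. Subunits of complexes III and IV are not analysed here. Within this rule no single member was chosen by its values, but the set was chosen with earlier results of these data known. Of the 63 members 62 passed the filter for low expression. It was set at 3 log2 CPM for the mean of the tissues used (CPM, counts scaled to the size of the library). *ATP5SL* fell just outside this filter with a mean of 2.54, and *SDHAF3* was the member just inside, with 3.01.

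RNA was sequenced from laser-microdissected dental tissue of hatchlings. The methods equate its stage, with a successional lamina, to tooth initiation from the dental lamina (DL) in embryos. The mutants were heterozygous *Sca*/+ animals, which carry 1 copy of a codominant scaleless mutation in *EDA*, a ligand gene of tooth and scale development, and they were set against wild-type (WT) animals of the same stage. Epithelium of the DL and surrounding mesenchyme came from the posterior jaw position, where WT teeth are acrodont (fused to the jaw crest), and from the anteriormost position, where WT teeth are pleurodont (attached to the inner side of the jaw). This gives 8 groups of 3 samples each, 24 in all, and the table holds 1 value per gene and group, named as a mean. Each combination of genotype, position and compartment is called a tissue below. The column for posterior epithelium of WT was not used, since 11121 of 11126 values in it increase evenly down the table, and 7 tissues remained. With 1 value per group there is no replicate check and no test of a difference here. Per the methods, the authors tested genes with edgeR on 3 biological replicates, and those results are not used here. Many log2 differences of single genes are given with an exact 95% interval for counting error, which leaves out variation between animals and in amplification. Where no interval is printed, as for most genes of the other lists, the counting error is not given. Per the methods, 3 animals of each genotype were used, and tissues of 1 genotype therefore share animals.

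The respiratory chain sits in the inner mitochondrial membrane. Complex I takes electrons from NADH and complex II takes them from succinate, both pass them to ubiquinone, and the later complexes hand them on to oxygen while protons are pumped out of the matrix. ATP synthase lets the protons back in through a rotating ring and uses that rotation to make ATP. Most subunits are encoded in the nucleus, translated in the cytosol and imported, and assembly factors put the complexes together without staying in them. The roles named below are those known from mammals.

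All 63 members were present in every tissue, as was every one of the 11126 genes of the table. The lowest value of any gene was between 1.13 and 1.85 CPM in each tissue. Within each tissue the values are whole multiples of 1 step, and a step was taken as 1 count. The mean of 3 libraries of unequal depth would not fall on such multiples in general, so each value may come from 1 library or from pooled reads, which the sources used here do not state. The intervals hold only if a step is 1 read. Depth lay between 789353 steps in *Sca*/+ anterior mesenchyme and 3264515 steps in *Sca*/+ posterior epithelium, and the median member had between 28 and 144 steps, so values of *Sca*/+ anterior mesenchyme are the least precise. The compartments matched their labels: 16 of 16 mesenchyme markers were at least 1 log2 unit lower in epithelium than in mesenchyme in all 3 pairs of tissues, and 9, 10 and 10 of the 11 epithelium markers in the table were at least 1 unit higher. Summed mesenchyme markers did not move one way with genotype. They stood at 120868 CPM in *Sca*/+ anterior mesenchyme against 51374 CPM in WT, but at 74327 CPM in *Sca*/+ and 148345 CPM in WT posterior mesenchyme. Summed epithelium markers were higher in *Sca*/+ in all 3 comparisons, as the members' sums were. They were 15425 CPM in *Sca*/+ against 12332 CPM in WT anterior epithelium, 6322 CPM in *Sca*/+ against 4203 CPM in WT anterior mesenchyme, and 5536 CPM in *Sca*/+ against 3529 CPM in WT posterior mesenchyme, and the part of these markers in the results was not tested. Of 17 skeletal muscle markers 2, *ACTA1* and *RYR1*, could be read. Their sum was 286 CPM in *Sca*/+ and 319 CPM in WT posterior mesenchyme, and 4 to 26 CPM in the other tissues. Of the markers of endothelium 6 of 8 were found, and their sum ranged from 28 to 70 CPM in epithelium and from 1062 to 2641 CPM in mesenchyme. Of the leukocyte markers 3 of 6 were found, with sums of 34 CPM in *Sca*/+ against 64 CPM in WT anterior epithelium, 185 CPM in *Sca*/+ against 333 CPM in WT anterior mesenchyme, and 93 CPM in *Sca*/+ and 95 CPM in WT posterior mesenchyme. The part of the muscle, endothelium and leukocyte markers in the comparisons by genotype was not tested. The 6 erythroid and 5 adipocyte markers were not analysed here.

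Added over the 63 members, expression was higher in the *Sca*/+ tissue than in the WT tissue at every position and compartment that could be compared. In anterior epithelium the sum was 4340 CPM in *Sca*/+ and 3177 CPM in WT, a ratio of 1.37 (log2 0.45, interval 0.40 to 0.50). In anterior mesenchyme it was 3440 CPM in *Sca*/+ and 2766 CPM in WT, a ratio of 1.24 (log2 0.31, 0.24 to 0.39). In posterior mesenchyme it was 4633 CPM in *Sca*/+ and 3220 CPM in WT, a ratio of 1.44 (log2 0.52, 0.47 to 0.58). The highest sum of all was the 4868 CPM of *Sca*/+ posterior epithelium, for which no WT value was used. The median gene of the same table lay close to 0 in these comparisons, at 0.00, 0.04 and 0.00 log2 units. A median is not a sum, and the sum over all genes of the table differed by genotype too. From WT to *Sca*/+ this total went from 861122 to 944328 CPM for anterior epithelium. For anterior mesenchyme it went from 875261 up to 1026874 CPM, and for posterior mesenchyme from 1047963 down to 1041111 CPM. The part of these totals in the ratios of the members was not tested. In a bulk sample, more cells that express a gene and more RNA of it per cell cannot be told apart.

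**Figure D1:**
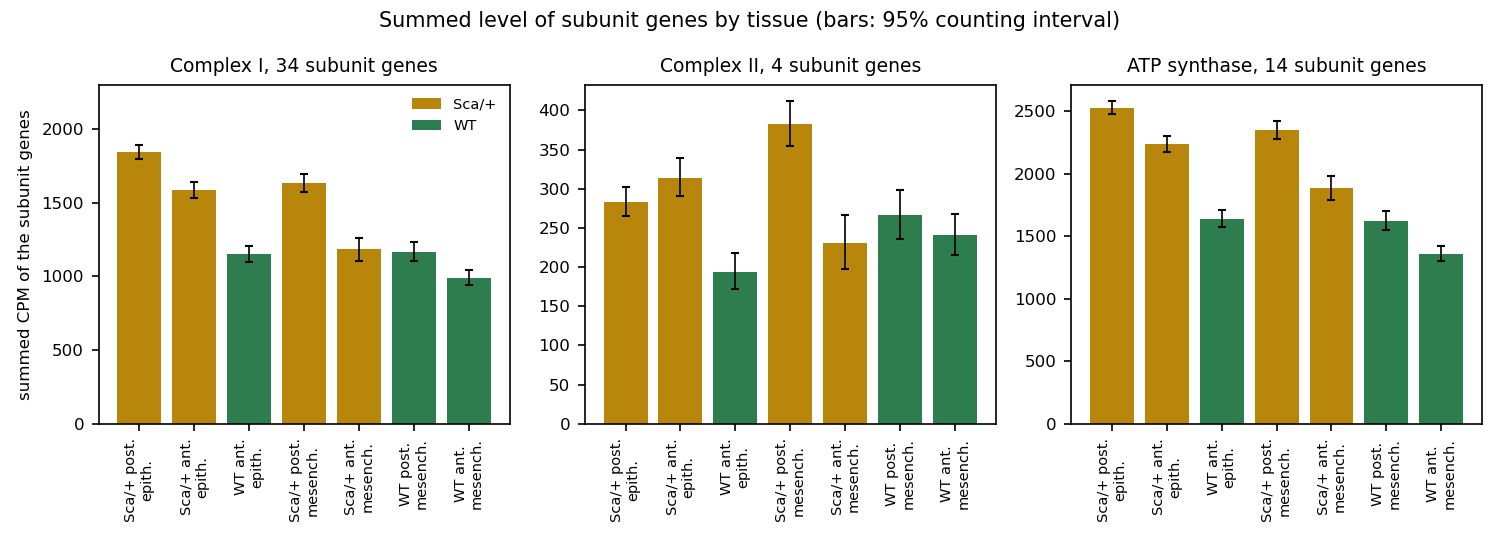
Summed expression in CPM of the subunit genes of complex I (34 genes), complex II (4 genes) and ATP synthase (14 genes) in each of 7 tissues, with bars for *Sca*/+ and WT and 95% Poisson intervals for counting error. ATP synthase sums run from 1360 CPM in WT anterior mesenchyme to 2530 CPM in *Sca*/+ posterior epithelium, and complex II is the only panel in which *Sca*/+ anterior mesenchyme (230 CPM) does not lie above WT anterior mesenchyme (241 CPM).

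The shift was small for most genes and uneven between them. Between *Sca*/+ and WT anterior epithelium, 44 of 62 members (71.0%) had a difference above 0, against 50.3% of all genes kept, and their median was 0.37 log2 units. A difference of at least 1 log2 unit is called higher or lower here. By that rule 10 members (16.1%) were higher in *Sca*/+, against 12.2% of all genes, and 3 (4.84%) were lower, against 10%. In anterior mesenchyme 37 members (59.7%) lay above 0, against 52.6% of all genes, with a median of 0.29. There 9 members (14.5%) were higher, against 11.5% of all genes, and 3 (4.84%) were lower, against 8.37%. In posterior mesenchyme 50 members (80.6%) lay above 0, against 49.8% of all genes, with a median of 0.58, 15 (24.2%) were higher, against 8.82%, and 3 (4.84%) were lower, against 8.13%. The share of higher members in either anterior comparison was therefore near the share among all genes. The shift lay in the medians and in a smaller share of lower members. The counting interval lay wholly above 0 for 31 members (50.0%) in anterior epithelium, 14 (22.6%) in anterior mesenchyme and 31 (50.0%) in posterior mesenchyme, against 25%, 20.8% and 18.8% of all genes. It lay wholly below 0 for 5, 4 and 2 members, against 25.4%, 16.1% and 20.1% of all genes.

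**Figure D2:**
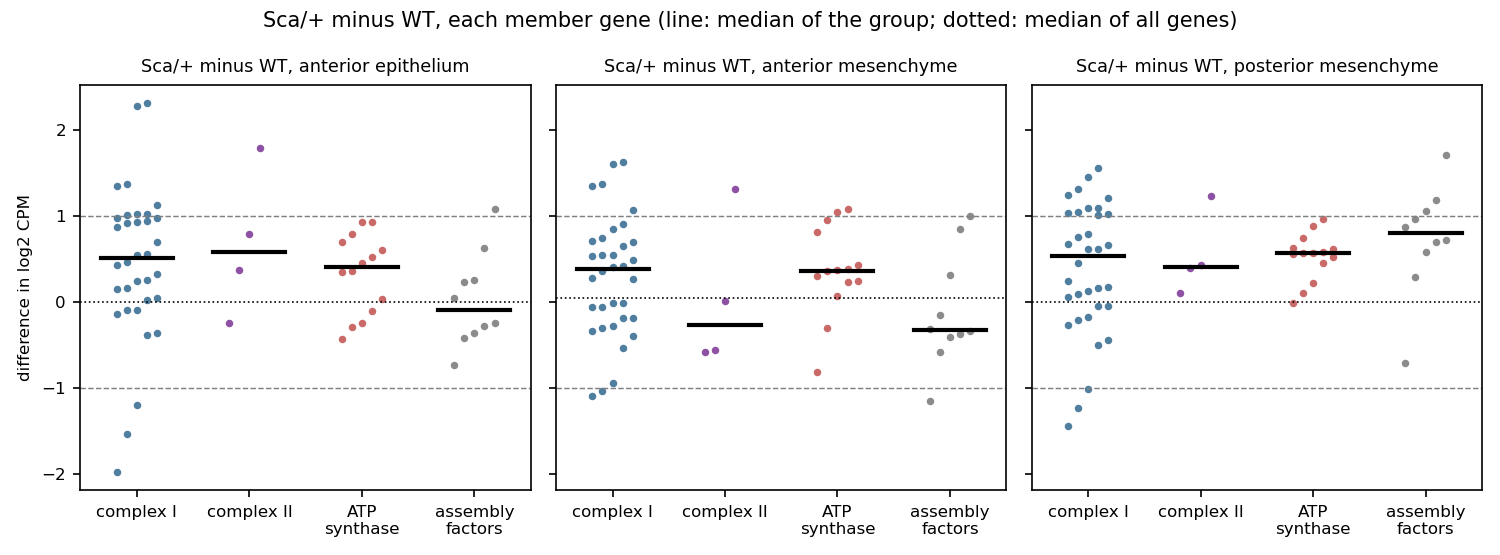
Difference in log2 CPM between *Sca*/+ and WT for each member in anterior epithelium and in anterior and posterior mesenchyme, 1 point per gene, with the median of each class as a solid line, the median of all genes dotted and 1 log2 unit dashed. The ATP synthase points stay between -0.81 and 1.08 in the 3 panels, whereas the complex I points, more in number and on fewer steps per gene, run from -1.97 to 2.31.

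The 34 complex I subunits had medians of 0.51 (anterior epithelium), 0.38 (anterior mesenchyme) and 0.53 (posterior mesenchyme). Of them 8, 5 and 11 were higher in *Sca*/+ and 3, 2 and 3 were lower. Of all genes 12.2%, 11.5% and 8.82% were higher in these comparisons, and 10%, 8.37% and 8.13% were lower. The members of the electron transfer core, which carry the flavin and the iron-sulfur clusters, differed widely from one another. *NDUFS7*, whose iron-sulfur cluster is the last before ubiquinone, had 47.9 CPM in *Sca*/+ against 22.0 CPM in WT anterior epithelium, 44.2 CPM in *Sca*/+ against 17.3 CPM in WT anterior mesenchyme, and 52.7 CPM in *Sca*/+ and 22.3 CPM in WT posterior mesenchyme. *Sca*/+ posterior epithelium had 35.8 CPM, so that all 4 *Sca*/+ tissues lay above all 3 WT tissues for this gene. The share of all genes separated in this way is not given here, so this shows no excess over all genes. Tissues of 1 genotype also share animals. The differences were 1.12 (interval 0.53 to 1.76), 1.35 (0.56 to 2.17) and 1.24 (0.58 to 1.96). It was thus at least 1 log2 unit higher in both anterior comparisons and also in all 3 comparisons. The same members held both patterns, 2 of 62. Of all genes 3.86% held the first pattern and 1.02% the second.

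Several other core subunits did not follow it. *NDUFS1*, the large iron-sulfur subunit of the NADH-oxidizing module, had 68.4 CPM in *Sca*/+ against 89.3 CPM in WT anterior epithelium, 70.2 CPM in *Sca*/+ against 80.1 CPM in WT anterior mesenchyme, and 102 CPM in *Sca*/+ and 106 CPM in WT posterior mesenchyme. All 3 differences were below 0, at -0.38 (-0.74 to -0.03), -0.19 (-0.69 to 0.29) and -0.05 (-0.40 to 0.30). *NDUFV1*, which binds the flavin and NADH, differed by 0.87 (0.51 to 1.25) and 0.75 (0.24 to 1.25) in the anterior tissues and by 0.10 (-0.34 to 0.55) in posterior mesenchyme. *NDUFV2*, its iron-sulfur partner, was nearer to a uniform shift with 0.46 (0.03 to 0.91), 0.71 (0.06 to 1.36) and 0.66 (0.13 to 1.22), and all 3 intervals excluded 0. *NDUFS3*, a subunit of the arm that leads to ubiquinone, had 13 steps in *Sca*/+ against 50 steps in WT anterior mesenchyme, a difference of -1.09 (-2.10 to -0.19). Its differences in anterior epithelium and posterior mesenchyme were 0.05 and 0.17. *NDUFS8*, which holds iron-sulfur clusters of the same arm, rested on 7 to 25 steps per tissue, and its differences of -0.14, 1.37 and -1.01 all had intervals that included 0.

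**Figure D3:**
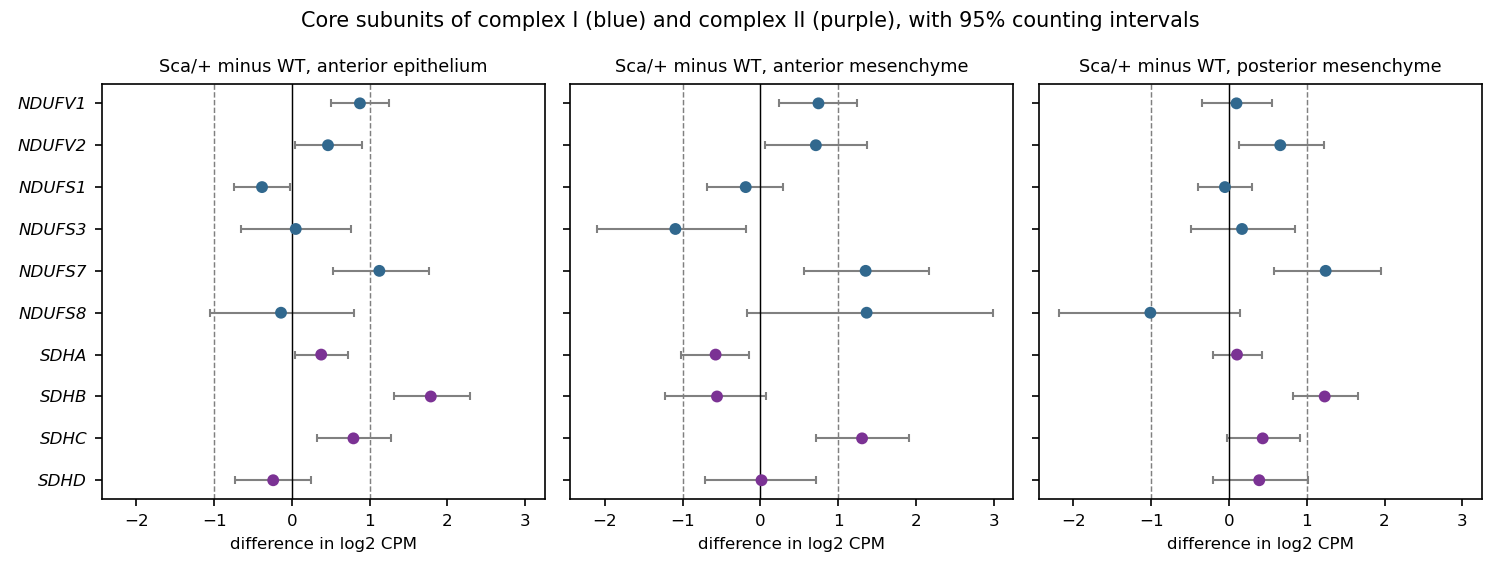
Difference in log2 CPM between *Sca*/+ and WT for core subunits of complex I and the 4 subunits of complex II, with 95% counting intervals, in 3 tissue pairs. *NDUFS7* lies at 1.12, 1.35 and 1.24, and *SDHB* at 1.79, -0.56 and 1.23, from left to right.

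The accessory subunits of complex I surround the core, and several of them differed by more than 1 log2 unit in single comparisons. *NDUFS5*, a subunit on the intermembrane-space side, had 61.5 CPM in *Sca*/+ against 12.8 CPM in WT anterior epithelium (2.27, 1.55 to 3.07), 36.4 CPM in *Sca*/+ against 19.5 CPM in WT anterior mesenchyme (0.90, 0.09 to 1.72), and 31.7 CPM in *Sca*/+ and 15.8 CPM in WT posterior mesenchyme (1.01, 0.21 to 1.89). *NDUFA13*, known also as GRIM-19, had 52.7 CPM in *Sca*/+ against 26.9 CPM in WT anterior epithelium (0.97, 0.42 to 1.54), 37.7 CPM in *Sca*/+ against 12.3 CPM in WT anterior mesenchyme (1.62, 0.71 to 2.58), and 36.8 CPM in *Sca*/+ and 14.8 CPM in WT posterior mesenchyme (1.31, 0.51 to 2.20). Both genes had intervals above 0 in all 3 comparisons. *NDUFA11*, a membrane-arm subunit, differed in 1 tissue pair alone, with 35.2 CPM in *Sca*/+ against 7.08 CPM in WT anterior epithelium (2.31, 1.35 to 3.43) and differences of -0.02 and 0.16 in the mesenchyme of the 2 positions.

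A smaller number of accessory subunits were lower in *Sca*/+ anterior epithelium. *NDUFA6*, a small protein that anchors the acyl carrier protein to the peripheral arm, had 10 steps and 4.88 CPM in *Sca*/+ against 27 steps and 19.1 CPM in WT, a difference of -1.97 (-3.18 to -0.88). *NDUFAB1*, that acyl carrier protein, which also serves mitochondrial fatty acid synthesis, had 14.2 CPM in *Sca*/+ and 41.1 CPM in WT, a difference of -1.54 (-2.23 to -0.87). *NDUFB1*, a single-pass membrane subunit, had 18.6 CPM in *Sca*/+ and 42.5 CPM in WT, a difference of -1.20 (-1.82 to -0.59). In each of these genes *Sca*/+ anterior epithelium had the lowest value of all 7 tissues, while *Sca*/+ posterior epithelium had the highest. In mesenchyme their differences were -0.01, -0.94 and -0.53 at the anterior position and -0.50, 0.24 and -0.27 at the posterior position.

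Other complex I genes led single comparisons. In anterior mesenchyme *NDUFB7*, a disulfide-bonded subunit of the membrane arm, had 20.8 CPM in *Sca*/+ and 42.6 CPM in WT (-1.03, -1.93 to -0.22). In posterior mesenchyme *NDUFA8*, another disulfide-bonded subunit, had 53 steps in *Sca*/+ and 11 steps in WT (1.56, 0.60 to 2.64). *NDUFB6*, a membrane-arm subunit, had 43.1 CPM in *Sca*/+ and 15.8 CPM in WT there (1.45, 0.68 to 2.30). *NDUFS6*, the zinc-binding subunit needed to attach the NADH module, ran the other way, with 5.10 CPM in *Sca*/+ and 13.9 CPM in WT posterior mesenchyme (-1.45, -2.82 to -0.16), although it was higher in *Sca*/+ anterior epithelium, at 23.0 CPM against 11.3 CPM in WT (1.02, 0.17 to 1.94). *NDUFA7* was also lower in *Sca*/+ posterior mesenchyme, with 9.06 CPM against 21.3 CPM in WT (-1.23, -2.25 to -0.25). The last 2 genes rested on 9 to 47 steps in the tissues of these comparisons.

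Complex II, which is also the succinate dehydrogenase of the tricarboxylic acid (TCA) cycle, had no shared direction. Its 4 subunits had a median of 0.58 in anterior epithelium, -0.27 in anterior and 0.41 in posterior mesenchyme, with 1 subunit higher in each and none lower. With 4 genes this count shows no excess over the 12.2%, 11.5% and 8.82% of all genes that were higher. *SDHB*, the iron-sulfur subunit, had 107 CPM in *Sca*/+ against 31.2 CPM in WT anterior epithelium (1.79, 1.31 to 2.29) and 137 CPM in *Sca*/+ and 58.4 CPM in WT posterior mesenchyme (1.23, 0.83 to 1.65), but 37.7 CPM in *Sca*/+ against 55.6 CPM in WT anterior mesenchyme (-0.56, -1.23 to 0.07). Its genotypes thus overlapped across tissues. *SDHC*, a membrane anchor, was the subunit that was higher in anterior mesenchyme, at 76.7 CPM in *Sca*/+ and 31.0 CPM in WT (1.31, 0.71 to 1.91), and it differed by 0.79 (0.32 to 1.28) and 0.43 (-0.03 to 0.91) in the other comparisons. *SDHA*, the flavoprotein that oxidizes succinate, differed by 0.38 (0.04 to 0.72), -0.58 (-1.03 to -0.14) and 0.10 (-0.21 to 0.42). *SDHD*, the second membrane anchor, stayed within 0.39 log2 units of 0, with intervals that included 0 in all 3 comparisons.

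ATP synthase moved the most evenly, but the part of read depth and of gene number in this was not tested. In *Sca*/+ anterior mesenchyme 909 steps fell on the 34 complex I subunits and 1449 steps on the 14 genes of ATP synthase. Its 14 subunits added up to 2238 CPM in *Sca*/+ against 1640 CPM in WT anterior epithelium, 1885 CPM in *Sca*/+ against 1360 CPM in WT anterior mesenchyme, and 2348 CPM in *Sca*/+ and 1624 CPM in WT posterior mesenchyme. The ratios were 1.36, 1.39 and 1.45, the medians 0.41, 0.36 and 0.57, and 10, 12 and 13 of the 14 genes lay above 0. Few passed 1 log2 unit: 0, 2 and 0 were higher and none was lower. Of all genes 12.2%, 11.5% and 8.82% were higher, and 10%, 8.37% and 8.13% were lower. *ATP5B*, the catalytic beta subunit, had 482 CPM in *Sca*/+ against 317 CPM in WT anterior epithelium (0.60, 0.44 to 0.77), 367 CPM in *Sca*/+ against 274 CPM in WT anterior mesenchyme (0.42, 0.20 to 0.65), and 453 CPM in *Sca*/+ and 297 CPM in WT posterior mesenchyme (0.61, 0.42 to 0.80). *ATP5A1*, the alpha subunit that alternates with it in the head, differed by 0.35 (0.15 to 0.55), 0.30 (0.02 to 0.57) and 0.22 (-0.01 to 0.45). For both genes every *Sca*/+ value lay above every WT value, with *Sca*/+ posterior epithelium at 462 CPM for *ATP5B* and 296 CPM for *ATP5A1*. As for *NDUFS7*, the share of all genes separated in this way is not given here.

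The subunits of the rotor varied more. *ATP5G2*, 1 of the 2 genes read for the c subunit that forms the proton-driven ring, had 325 CPM in *Sca*/+ against 171 CPM in WT anterior epithelium (0.93, 0.72 to 1.15), 312 CPM in *Sca*/+ against 151 CPM in WT anterior mesenchyme (1.05, 0.78 to 1.32), and 284 CPM in *Sca*/+ and 154 CPM in WT posterior mesenchyme (0.89, 0.63 to 1.15). It stood at 359 CPM in *Sca*/+ posterior epithelium. The lowest of its *Sca*/+ values, 284 CPM, was above the highest of its WT values, 171 CPM. Here too the share of all genes separated in this way is not given. The other c-subunit gene, *ATP5G1*, differed by 0.70 (0.28 to 1.13), 0.37 (-0.20 to 0.93) and -0.01 (-0.41 to 0.40). Whether the difference between the 2 genes exceeds the spread between animals was not tested. *ATP5C1*, the gamma subunit of the central stalk, differed by 0.53 (0.16 to 0.90), 1.08 (0.58 to 1.58) and 0.56 (0.22 to 0.90). *ATP5E*, the small epsilon subunit of the same stalk, had -0.43 (-1.08 to 0.22) and -0.81 (-1.88 to 0.15) in the anterior tissues and 0.96 (0.43 to 1.52) in posterior mesenchyme. The 4 genes of the peripheral stalk, which holds the head still, had medians of 0.20, 0.16 and 0.57, and *ATP5F1*, its b subunit, was the one with intervals above 0 throughout, at 0.36, 0.39 and 0.58.

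Assembly factors gave another picture. The 10 that passed the filter had a median of -0.10 in anterior epithelium, -0.33 in anterior and 0.80 in posterior mesenchyme. Of them 1, 1 and 3 were higher and 0, 1 and 0 were lower. These counts are of few genes, beside 12.2%, 11.5% and 8.82% of all genes higher and 10%, 8.37% and 8.13% lower. With *ATP5SL* included, the 11 factors summed to 271 CPM in *Sca*/+ and 164 CPM in WT posterior mesenchyme, and to 204 and 191 CPM in anterior epithelium. In anterior mesenchyme the sum was 142 CPM in *Sca*/+ against 175 CPM in WT. The Poisson intervals of those last 2 sums, 116 to 171 and 154 to 199 CPM, overlapped. *NDUFAF4*, which works with *NDUFAF3* on the ubiquinone arm, had 6 steps in *Sca*/+ against 24 in WT anterior mesenchyme (-1.15, -2.73 to 0.18), whereas *NDUFAF3* differed there by 1.00 (-0.45 to 2.48). *NDUFAF8*, a partner of the enzyme *NDUFAF5*, had the largest difference of all members in posterior mesenchyme, 1.70, on 16 steps in *Sca*/+ and 3 in WT, and its interval of -0.10 to 4.13 included 0. *SDHAF4*, which helps to mature *SDHA*, had 61.8 CPM in *Sca*/+ and 29.7 CPM in WT posterior mesenchyme (1.06, 0.48 to 1.67). *ATP5SL*, left out by the filter, had between 2 and 26 steps per tissue.

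The 3 comparisons by genotype share no value of the table, which allows each gene to be followed through them. Above 0 in all 3 were 27 of 62 members, against 20.6% of all genes, and 5 members lay below 0 in all 3 (*NDUFA6*, *NDUFAF1*, *NDUFB1*, *NDUFB2* and *NDUFS1*), against 18.5%. The 27 comprised 9 of the 14 ATP synthase genes, 15 of the 34 complex I subunits, 1 complex II subunit and 2 assembly factors. In 10 members the interval lay above 0 in all 3 comparisons, against 4.3% of all genes, among them *ATP5B*, *ATP5C1*, *ATP5D*, *ATP5F1*, *ATP5G2*, *NDUFA13*, *NDUFS5*, *NDUFS7* and *NDUFV2*. No member had intervals below 0 in all 3. Across the 62 genes the differences of the comparisons were weakly correlated, with Pearson's r of 0.26, 0.24 and 0.14, next to 0.36, 0.19 and 0.15 across all genes. Genes are not independent replicates, and the tissues share animals. The counting interval of a gene held the members' own median in 35, 45 and 40 of the 62 members. It lay wholly above that median in 15, 8 and 7 members and wholly below it in 12, 9 and 15. Whether the members share a common shift was not tested.

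**Figure D4:**
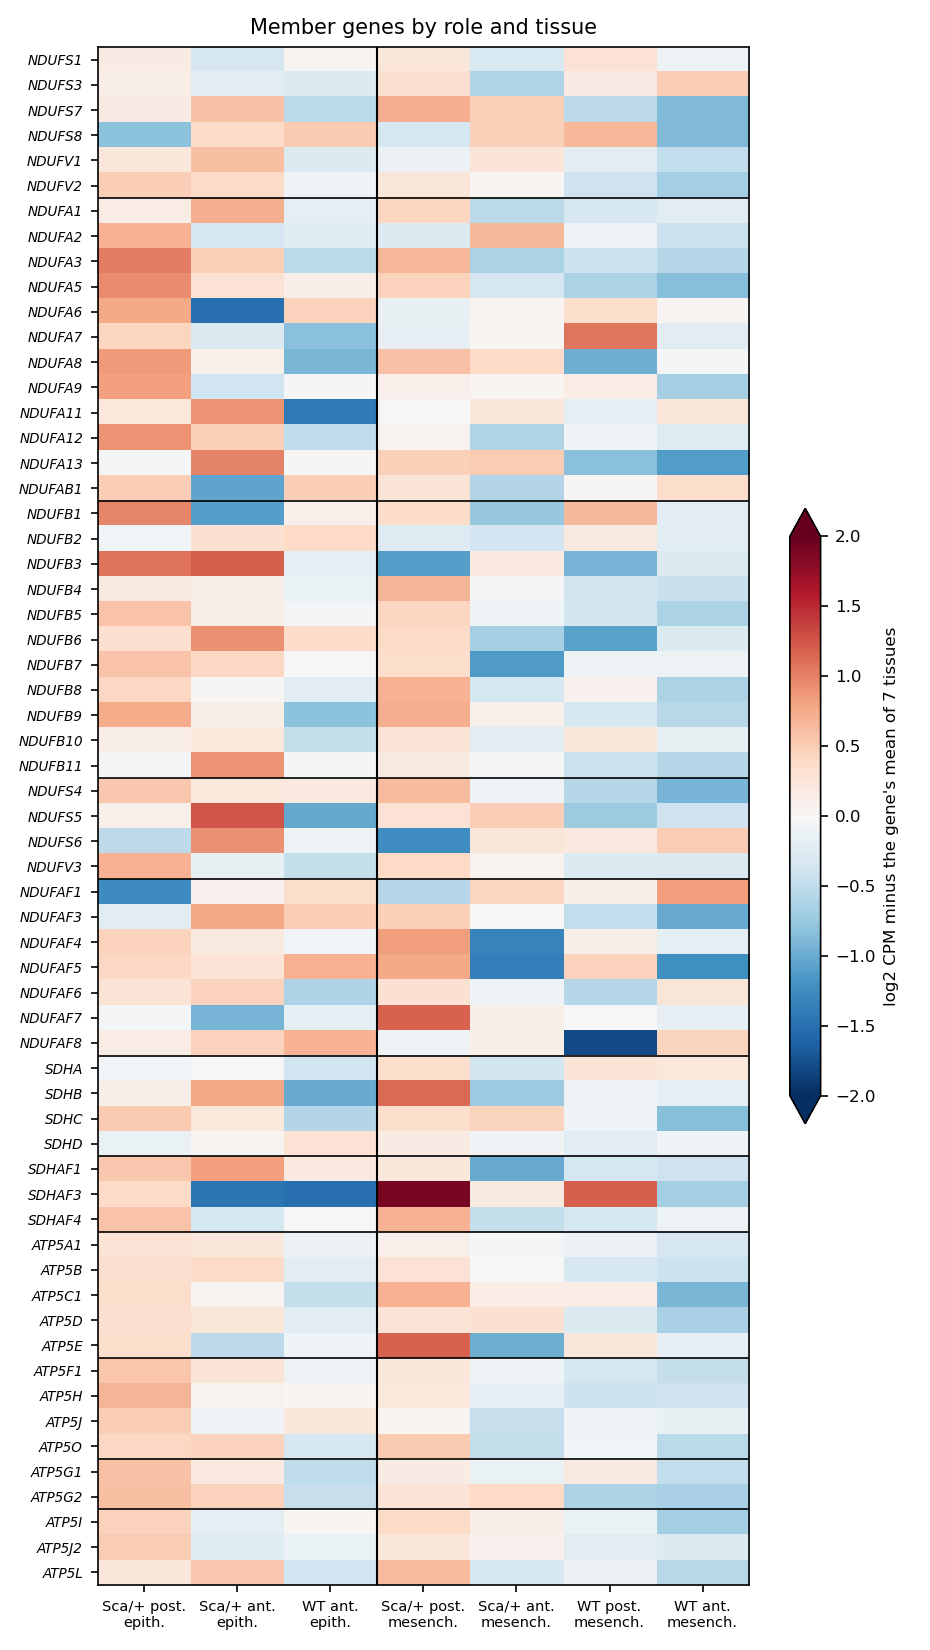
Level of the members in each of 7 tissues as log2 CPM minus the gene's own mean over the tissues, with rows ordered by role (*ATP5SL* is among those not drawn) and colours limited to 2 log2 units either way. Blue is most frequent in WT anterior mesenchyme, which held the lowest value of 26 of the 63 members, and red in *Sca*/+ posterior epithelium, which held the highest value of 24.

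Seen tissue by tissue, *Sca*/+ posterior epithelium held the highest value of 24 of the 63 members and *Sca*/+ posterior mesenchyme that of 17, against 14.6% and 13% of all genes. *Sca*/+ anterior mesenchyme held the highest value of none, against 12.4% of all genes, and it was also the tissue with the fewest steps. WT anterior mesenchyme held the lowest value of 26 members, against 15.4% of all genes.

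The comparison by position sets posterior against anterior tissue of the jaw, which in WT are the acrodont and the pleurodont position. The paper describes the anteriormost dentary teeth of mutants as acrodont-like. The *Sca*/+ pairs are therefore not read here as acrodont against pleurodont. The sum over members was higher at the posterior position in each of 3 comparisons. It was 4868 CPM in posterior and 4340 CPM in anterior epithelium of *Sca*/+ (ratio 1.12), 4633 CPM in posterior and 3440 CPM in anterior mesenchyme of *Sca*/+ (1.35), and 3220 CPM in posterior and 2766 CPM in anterior mesenchyme of WT (1.16). The sum over all genes of the table was also higher at the posterior position each time. It was 1015457 CPM in posterior and 944328 CPM in anterior epithelium of *Sca*/+. In mesenchyme it was 1041111 and 1026874 CPM in *Sca*/+, and 1047963 and 875261 CPM in WT, posterior first. In WT mesenchyme the whole table rose by more, in proportion, than the members did. The median differences of the members were 0.15, 0.38 and 0.22, with medians of all genes at 0.03, 0.02 and 0.04. Posterior values were above anterior ones for 37, 47 and 47 of 62 members (59.7%, 75.8% and 75.8%), against 52.1%, 50.9% and 52.6% of all genes. In *Sca*/+ epithelium 6 members were higher at the posterior position and 5 lower, against 7.02% and 6.68% of all genes. In *Sca*/+ mesenchyme 13 were higher and 2 lower, against 8.34% and 10.4%. In WT mesenchyme 5 were higher and 1 lower, against 9.15% and 7.97%, which puts its share of higher members (8.06%) below that of all genes. The higher members of each comparison include *SDHAF3*, which passed the filter only through its posterior values. Intervals were clear of 0 on the posterior side for 26, 28 and 14 members, against 26.3%, 18.1% and 20.3% of all genes, and on the anterior side for 14, 3 and 1, against 22.4%, 18% and 14.9%. The 2 muscle markers moved with both mesenchyme comparisons, at 286 CPM in posterior and 26 CPM in anterior mesenchyme of *Sca*/+ and at 319 CPM in posterior and 14 CPM in anterior mesenchyme of WT. The endothelium markers did so as well, with 1647 CPM in posterior and 1257 CPM in anterior mesenchyme of *Sca*/+ and 2641 CPM in posterior and 1062 CPM in anterior mesenchyme of WT. The leukocyte markers ran the other way, with 93 CPM in posterior and 185 CPM in anterior mesenchyme of *Sca*/+ and 95 CPM in posterior and 333 CPM in anterior mesenchyme of WT. The part of these 3 kinds of marker in the result was not tested.

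By complex, the medians for position were 0.24, 0.29 and 0.24 in complex I subunits, -0.11, 0.47 and 0.06 in complex II subunits and 0.30, 0.31 and 0.29 in ATP synthase. The assembly factors had their highest median for position in *Sca*/+ mesenchyme, with a value of 1.11 and 6 of 10 higher, next to -0.03 in *Sca*/+ epithelium and 0.12 in WT mesenchyme. Of all genes 8.34% were higher in *Sca*/+ mesenchyme. The medians and the count include *SDHAF3*, whose posterior values alone carried it past the filter. *NDUFAF4* had 35.1 CPM in posterior and 7.81 CPM in anterior mesenchyme of *Sca*/+ (2.17, 0.97 to 3.67). *NDUFAF5*, which hydroxylates *NDUFS7*, had 17.0 CPM in posterior and 3.90 CPM in anterior mesenchyme of *Sca*/+ (2.12, 0.44 to 4.48), the anterior value being 3 steps. The difference of *NDUFAF5* in WT mesenchyme was 1.68 (0.24 to 3.34) on 15 posterior and 6 anterior steps. *SDHAF3*, which helps to mature *SDHB*, was at least 1 log2 unit higher at the posterior position in all 3 comparisons. No other member was, against 0.411% of all genes. With a mean of 3.01 log2 CPM, it passed the filter only through its posterior values of 3.40, 4.91 and 4.21. Its anterior values were 1.50 to 3.19, so the share of all genes is no measure of its result. *SDHAF3* had 34 posterior and 6 anterior steps in *Sca*/+ epithelium (1.85, 0.58 to 3.39), 53 posterior and 7 anterior steps in *Sca*/+ mesenchyme (1.72, 0.58 to 3.10), and 20 posterior and 7 anterior steps in WT mesenchyme (1.88, 0.58 to 3.36).

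*NDUFB1* had 78.4 CPM in posterior and 18.6 CPM in anterior epithelium of *Sca*/+ (2.08, 1.58 to 2.61), 51.5 CPM in posterior and 23.4 CPM in anterior mesenchyme of *Sca*/+ (1.14, 0.40 to 1.96), and 62.1 CPM in posterior and 33.9 CPM in anterior mesenchyme of WT (0.87, 0.31 to 1.44). It lay higher at the posterior position by an interval clear of 0 in both genotypes. *NDUFA6* had 23.3 CPM in posterior and 4.88 CPM in anterior epithelium of *Sca*/+ (2.26, 1.30 to 3.37), with -0.20 and 0.29 in the mesenchyme of *Sca*/+ and WT. *ATP5E* had 70.2 CPM in posterior and 15.6 CPM in anterior mesenchyme of *Sca*/+ (2.17, 1.31 to 3.16), and 0.40 (-0.28 to 1.08) in WT mesenchyme. *SDHB* had 137 CPM in posterior and 37.7 CPM in anterior mesenchyme of *Sca*/+ (1.86, 1.30 to 2.47), 58.4 CPM in posterior and 55.6 CPM in anterior mesenchyme of WT (0.07, -0.43 to 0.57), and 68.1 CPM in posterior and 107 CPM in anterior epithelium of *Sca*/+ (-0.66, -0.93 to -0.38).

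Fewer members were lower at the posterior position. *NDUFS6* had 8.40 CPM in posterior and 23.0 CPM in anterior epithelium of *Sca*/+ (-1.45, -2.19 to -0.74), and 5.10 CPM in posterior and 14.3 CPM in anterior mesenchyme of *Sca*/+ (-1.49, -2.94 to -0.08). In WT mesenchyme it differed by -0.32 (-1.35 to 0.67). *NDUFAF1*, a core assembly factor of the membrane arm, had 8.09 CPM in posterior and 20.5 CPM in anterior epithelium of *Sca*/+ (-1.34, -2.11 to -0.60), 13.0 CPM in posterior and 26.0 CPM in anterior mesenchyme of *Sca*/+ (interval -1.93 to -0.06), and a difference of -0.70 (-1.48 to 0.05) in mesenchyme of WT. *NDUFS8* had -1.21 (-2.19 to -0.26) in *Sca*/+ epithelium but 1.55 (0.19 to 3.08) in WT mesenchyme, and *NDUFB3*, a membrane-arm subunit, had -1.31 (-2.51 to -0.11) in *Sca*/+ mesenchyme. In WT mesenchyme the lowest values were those of *NDUFAF8* with -2.22 (-4.63 to -0.45) on 3 posterior and 18 anterior steps, *NDUFA8* with -0.93 (-2.09 to 0.12) and *NDUFAF6*, a complex I assembly factor, with -0.82 (-1.99 to 0.25).

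Over the 3 comparisons by position, 26 members lay above 0 in all of them, against 17.6% of all genes, and 6 below 0 in all (*NDUFA11*, *NDUFAF1*, *NDUFAF8*, *NDUFB3*, *NDUFS5* and *NDUFS6*), against 14.2%. Intervals above 0 in all 3 were found for 5 members, against 3.03% of all genes. These were *ATP5C1*, *NDUFB1*, *NDUFB8*, *NDUFS1* and *SDHAF3*, the last of which passed the filter only through its posterior values. *NDUFS1*, which was not higher in *Sca*/+, was the core subunit among them, with differences of 0.50 (0.21 to 0.80), 0.54 (0.09 to 1.00) and 0.40 (0.01 to 0.79). *ATP5C1* had 144 CPM in posterior and 98.9 CPM in anterior mesenchyme of *Sca*/+, 98.3 CPM in posterior and 46.9 CPM in anterior mesenchyme of WT, and 114 CPM in posterior and 91.8 CPM in anterior epithelium of *Sca*/+.

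**Figure D5:**
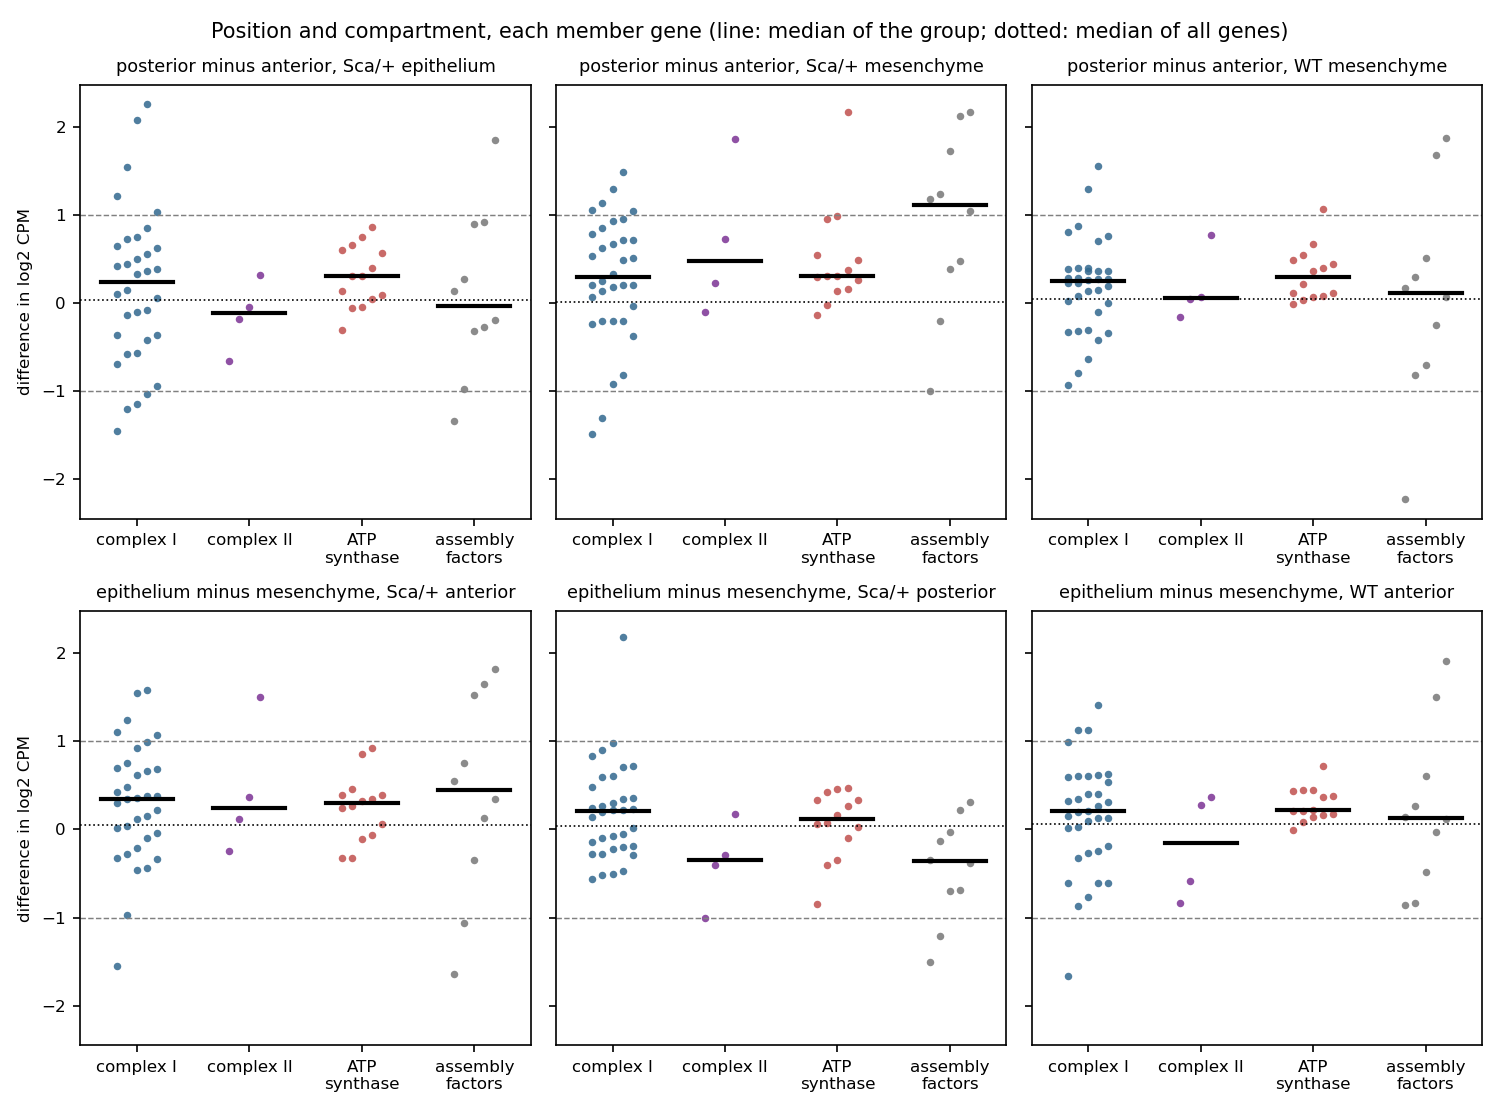
Difference in log2 CPM for each member between posterior and anterior tissue (top) and between epithelium and mesenchyme (bottom), 1 point per gene, with class medians as solid lines, the median of all genes dotted and 1 log2 unit dashed. The assembly factors of *Sca*/+ mesenchyme have their median at 1.11, and in the bottom row the ATP synthase points stay between -0.84 and 0.93.

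Between the compartments, the sum over members was higher in epithelium in each of 3 comparisons. It was 4340 CPM in epithelium and 3440 CPM in mesenchyme of *Sca*/+ anterior tissue (ratio 1.26), 4868 CPM in epithelium and 4633 CPM in mesenchyme of *Sca*/+ posterior tissue (1.05), and 3177 CPM in epithelium and 2766 CPM in mesenchyme of WT anterior tissue (1.15). The medians were 0.34, 0.04 and 0.21, next to 0.05, 0.04 and 0.06 over all genes. Each compartment held markers of the other, and the part of this in the differences was not tested. In the *Sca*/+ anterior tissue 9 members were higher in epithelium and 3 lower, against 11.5% and 14.3% of all genes. In the *Sca*/+ posterior tissue 1 was higher and 3 lower, against 12.1% and 13.7%, and in the WT anterior tissue 5 were higher and 1 lower, against 8.66% and 12.7%. Epithelium lay above mesenchyme for 44, 33 and 45 members, against 52.8%, 52.2% and 53.2% of all genes. Intervals were above 0 for 18, 16 and 16 members, against 21.9%, 30.1% and 23.1%, and below 0 for 1, 11 and 4, against 22%, 28% and 20.2%. Whereas the differences of all genes between epithelium and mesenchyme had standard deviations across genes of 1.12, 1.06 and 0.94 log2 units, those of the members had 0.71, 0.57 and 0.62. Pearson's r between the 3 comparisons was 0.56, 0.57 and 0.55 across all genes and 0.03, 0.12 and 0.01 across the 62 members, whose tissues and animals are the same. None was at least 1 log2 unit higher or lower in epithelium in all 3 comparisons, where 1.55% of all genes were higher and 6.07% lower in all 3.

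By complex the medians for compartment were 0.35, 0.21 and 0.20 in complex I subunits, 0.24, -0.35 and -0.16 in complex II subunits and 0.30, 0.12 and 0.22 in ATP synthase. In all 3 comparisons 16 members lay above 0, against 26.3% of all genes, and *ATP5F1* and *NDUFA5*, an accessory subunit of the peripheral arm, had intervals above 0 throughout, against 7.42% of all genes. *ATP5F1* had 170 CPM in epithelium and 134 CPM in mesenchyme of *Sca*/+ anterior tissue, 209 CPM in epithelium and 166 CPM in mesenchyme of *Sca*/+ posterior tissue, and 132 CPM in epithelium and 102 CPM in mesenchyme of WT anterior tissue. *NDUFAF1*, *NDUFAF7* and *SDHAF3* lay below 0 in all 3.

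The genes that led these comparisons differed from pair to pair. *NDUFB3* had 33.6 CPM in epithelium and 7.36 CPM in mesenchyme of *Sca*/+ posterior tissue (2.19, 1.36 to 3.14), but 0.13 (-0.87 to 1.13) in WT anterior tissue. *NDUFA2*, an accessory subunit of the NADH-oxidizing module, had 19.0 CPM in epithelium and 9.63 CPM in mesenchyme of *Sca*/+ posterior tissue (0.98, 0.18 to 1.85). *SDHAF1*, which helps to insert the iron-sulfur clusters of *SDHB*, had 45.9 CPM in epithelium and 13.0 CPM in mesenchyme of *Sca*/+ anterior tissue (1.82, 0.88 to 2.93), and *NDUFB6* had 62.5 CPM in epithelium and 20.8 CPM in mesenchyme there (1.59, 0.83 to 2.44). *SDHB* was higher in epithelium of *Sca*/+ anterior tissue, by 1.51 (0.95 to 2.12), and lower in epithelium of *Sca*/+ posterior tissue, by -1.01 (-1.28 to -0.74), with -0.83 (-1.40 to -0.28) in WT anterior tissue. *NDUFA11* had 7.08 CPM in epithelium and 22.4 CPM in mesenchyme of WT anterior tissue (-1.66, -2.85 to -0.59), next to 0.67 (-0.11 to 1.52) in *Sca*/+ anterior tissue. *NDUFAF5* had 1.91 (0.57 to 3.50) and *NDUFAF3* 1.50 (0.36 to 2.78) in WT anterior tissue, on 6 and 9 mesenchyme steps. *NDUFAF7*, a methyltransferase that acts in complex I assembly, had 12.8 CPM in epithelium and 29.5 CPM in mesenchyme of *Sca*/+ posterior tissue (-1.21, -1.83 to -0.59).

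Other gene lists of mitochondrial metabolism were read for the 3 comparisons by genotype, with anterior epithelium first, then mesenchyme of the anterior and of the posterior position. Of all genes 12.2%, 11.5% and 8.82% were higher in *Sca*/+ in these comparisons, and 10%, 8.37% and 8.13% were lower. The counts of every list below are to be read beside these shares, and those of short lists are few genes. The 2 genes named from each list are those with the largest absolute difference in the anterior comparisons, and do not stand for the list. The 18 genes of the TCA cycle and pyruvate oxidation had medians of 0.30, 0.24 and 0.11, with 3, 3 and 2 higher in *Sca*/+ and 0, 0 and 1 lower. *IDH3G*, a subunit of the NADH-producing isocitrate dehydrogenase, had 103 CPM in *Sca*/+ against 35.4 CPM in WT anterior epithelium, 74.2 CPM in *Sca*/+ against 36.8 CPM in WT anterior mesenchyme, and 98.6 CPM in *Sca*/+ and 45.4 CPM in WT posterior mesenchyme, or 1.54, 1.01 and 1.12. *SUCLG1*, of succinyl-CoA ligase, differed by 1.20, 0.48 and 0.43. The 71 mitochondrial ribosomal proteins that passed the filter had medians of 0.31, 0.21 and 0.50, close to those of the members, with 11, 14 and 12 higher and 4, 6 and 1 lower. *MRPS11* differed by 2.46 (0.37 to 5.63, on 16 steps in *Sca*/+ and 2 in WT), 0.26 and 1.83, and *MRPS2* by 1.06, 2.30 and 0.34. The 70 cytosolic ribosomal proteins stood further out, with medians of 1.03, 0.96 and 1.17, and *RPS28* and *RPS14* led them with 1.89 and 1.79 in anterior epithelium.

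Not every mitochondrial list was above 0. The 18 regulators of mitochondrial transcription and replication had medians of -0.16, -0.14 and -0.02, with 2, 4 and 0 higher and 3, 5 and 1 lower. *PPRC1*, a coactivator of nuclear genes for mitochondria, differed by 0.42, -3.15 (-6.26 to -1.18, on 2 steps in *Sca*/+ and 32 in WT) and -0.20. *POLG2*, the accessory subunit of the mitochondrial DNA polymerase, differed by -0.33, 3.18 (0.94 to 6.40, on 10 steps in *Sca*/+ and 2 in WT) and 0.14. The 24 import genes had medians of 0.21, -0.15 and 0.40. *TIMM50*, a receptor of the inner-membrane import channel, stood at 0.58, -2.09 (-4.47 to -0.36, on 3 steps in *Sca*/+ and 23 in WT) and 1.24. *TIMM8B*, a chaperone of the intermembrane space, stood at -0.17, -1.74 (-4.14 to 0.04, on 3 steps in *Sca*/+ and 18 in WT) and 1.51. The 15 assembly factors outside the symbol rule had medians of -0.26, 0.25 and 0.12. Among them *OXA1L*, the insertase of the inner membrane, differed by 0.79, 1.44 and 0.45 and *LYRM7*, a complex III assembly factor, by -1.54, 0.50 and 0.35. The 9 genes of ubiquinone synthesis and of electron transfer to it had medians of -0.06, 0.47 and 0.64. *COQ9*, which serves ubiquinone synthesis, had 48.4 CPM in *Sca*/+ against 9.21 CPM in WT anterior epithelium and 32.5 CPM in *Sca*/+ against 10.1 CPM in WT anterior mesenchyme, or 2.39 and 1.69, with 0.51 in posterior mesenchyme. *PDSS1*, which makes the side chain of ubiquinone, differed by -0.30, -1.29 and -1.12. The 13 glycolytic genes in the table had medians of 0.44, 0.06 and 0.48, with 3, 0 and 1 higher and 1, 0 and 2 lower. *GAPDH* had 3044 CPM in *Sca*/+ against 1015 CPM in WT anterior epithelium, or 1.58, and differed by 0.92 and 1.80 in mesenchyme, whereas the phosphofructokinase *PFKP* differed by -2.06, -0.96 and -1.55.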

How the data were processed

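Per the labels and methods, tissue was laser-captured, rRNA-depleted libraries were made with the Nugen Ovation SoLo kit and sequenced on an Illumina NextSeq instrument. The authors used Trimmomatic for trimming, STAR for alignment and counting, and edgeR, and the versions of these tools and the genome build are not given in the sources used here. The deposited values are log2 CPM, 1 column per group and named as means, so that amplification, the authors' normalization and an unstated choice of genes precede every number. CPM is not scaled to transcript length, and levels were compared between tissues, not between genes. Columns were used for 7 of 8 groups.

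Each value was a whole multiple of a column's step within 0.0065 CPM. Steps were read as counts for Clopper-Pearson intervals of differences (95%) and Poisson intervals of sums. Genes were kept at a mean of at least 3 log2 CPM, which left 9987. No test was possible with 1 value per group: limma fits, a replicate block and leaving out replicates were planned only for columns of single samples. Promoter and protein features were planned and not computed. The code was tested on simulated data.

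The members and lists were chosen with earlier results of these data known. Named are the subunits of each complex with the highest and lowest mean CPM, the 3 members of each direction with the largest difference per comparison, members higher in both anterior comparisons, core subunits and isoform pairs. From each other list the 2 genes with the largest absolute difference in the anterior comparisons by genotype are named. Of the genes these rules select, 1 enters the counts and sums but is not reported here. Genes singled out by intervals or by their pattern over 3 comparisons, and some named beside their partners, were chosen after their values were seen. As alternatives, results were computed with a filter at 5 log2 CPM, without a filter, with at least 20 steps, with a rule of 0.58 units, intervals clear of 0, centring, a trimmed mean of log ratios, log2(CPM + 1), subunits alone and the mean. Python 3.11.15 was used with scipy 1.17.1, numpy 2.4.6, matplotlib 3.10.9 and pandas 2.3.3.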

Additional observations from a re-analysis of the deposited data

Results flagged for a closer look

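In 3 members a difference of at least 1 log2 unit had opposite signs in comparisons of the same kind, and none of these contrasts between comparisons was tested. *NDUFS6* differed between *Sca*/+ and WT by 1.02 in anterior epithelium and by -1.45 in posterior mesenchyme. *NDUFS8* differed between *Sca*/+ and WT by 1.37 in anterior mesenchyme and by -1.01 in posterior mesenchyme, and between posterior and anterior tissue by -1.21 in *Sca*/+ epithelium and by 1.55 in WT mesenchyme, on 7 to 25 steps per tissue. *SDHB* differed between epithelium and mesenchyme by 1.51 in *Sca*/+ anterior tissue and by -1.01 in *Sca*/+ posterior tissue, on 29 to 242 steps. Both *SDHB* values have counting intervals clear of 0.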

How the results depend on the processing

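No paired analysis was possible because each group has 1 column without a replicate number, and for the same reason no replicate could be left out. The medians of the members kept their sign under every alternative, with 1 exception: between epithelium and mesenchyme of *Sca*/+ posterior tissue the median was -0.0065 with at least 20 steps in both columns, and it ranged from -0.0065 to 0.15. The medians by genotype ranged from 0.36 to 0.46, 0.23 to 0.37 and 0.48 to 0.59, in the order of the report. Members higher in all 3 comparisons by genotype, 2 as reported, were 1 with a filter at 5 log2 CPM, 1 on the scale of log2(CPM + 1) (*NDUFS7*) and 6 with a rule of 0.58 units, among them *ATP5G2*, *NDUFA13*, *NDUFB9*, *NDUFS5* and *NDUFS7*. The following of that pattern over 3 comparisons was chosen after seeing the data. With at least 20 steps, 5 of 51, 5 of 37 and 8 of 44 members were higher by genotype. By position these were 3 of 56, 4 of 38 and 1 of 43, and by compartment 3 of 38, 0 of 56 and 0 of 46. With a filter at 5 log2 CPM, which kept 36 members, the counts were 3, 4 and 8, then 2, 7 and 1, then 5, 0 and 0. With a rule of 0.58 units they were 24, 18 and 31 of 62, then 17, 24 and 11, then 19, 8 and 13. The shares of all genes at these settings are not given here, so these counts show no excess over all genes. Centring, a trimmed mean of log ratios and log2(CPM + 1) kept every count of single comparisons within 1.5 times. Depth limits single genes: the median counting interval reached 0.79 log2 units either side in anterior mesenchyme by genotype, and 0.55 and 0.59 in the other 2 comparisons. The cause of these changes was not tested, beyond the smaller number of genes that a filter keeps.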
